A study of Homo sapiens with 29 samples.

Results

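Transcript levels of 10 genes of the NF-kB pathway were followed across xenograft tumours of a breast cancer line and of a drug-resistant line derived from it. The genes were the subunits NFKB1, NFKB2 and RELB, the feedback inhibitors NFKBIA and TNFAIP3, and the target genes BIRC3, TRAF1, TNFAIP2, ICAM1 and SOD2. They were chosen by name, as the entries of the raw count table whose Ensembl identifiers carry these symbols. Earlier results of these data were known when they were chosen. The shares of all genes printed beside counts of members are therefore a reference and not a test of the set. All 10 were found among the 58302 genes of the table, and each also passed the filter on low counts that left 13495 genes for testing.

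Each of the 8 groups held human MDA-MB-231 tumours, grown orthotopically on both sides of SCID-beige mice, a strain without mature T and B cells. Parental tumours grew from 250000 cells, with treatment starting on day 6. Those of the paclitaxel-resistant line, which is 1 derived line, grew from 1500000 cells, with treatment starting on day 16, so the line cannot be told apart from these settings. Treatment lasted 26 days, in cycles of 12 days separated by 2 days of rest, with vehicle, decitabine (an inhibitor of DNA methyltransferases, 0.4 mg/kg), doxorubicin (a topoisomerase poison, 1 mg/kg) or both drugs. Each treatment was given to 4 mice of a line. There were 4 libraries each of parental vehicle, parental decitabine, parental combination, resistant vehicle and resistant doxorubicin tumours, and 3 each of parental doxorubicin, resistant decitabine and resistant combination tumours. The study asked whether resistance goes with expression changes that depend on DNA methylation, and whether decitabine undoes them.

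NF-kB proteins are dimeric transcription factors that inhibitors of the IkB family hold in the cytoplasm until a signal from receptors of the tumour necrosis factor, interleukin or Toll-like families releases them. In the canonical route an IkB kinase complex triggers the destruction of IkB alpha and frees dimers such as p50 with RelA. In the non-canonical route the p100 protein is processed to p52, which acts with RelB. Several targets are themselves brakes on the pathway, and it is known for its activity in basal and triple-negative breast cancer cells.

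Binding sites for these dimers, called kappa B sites, lie upstream of many of the genes, and they are shown because the members are defined as producers or targets of the same factors. The 250 bases upstream of each RefSeq start site (GRCh38.p14) were searched on both strands for the kappa B consensus. The consensus was found in 6 of the 17 member windows, which belong to 5 of the 9 genes that the table holds, against 9.96% of all 35116 windows. The 9-letter variant GGAAATTCC, which can overlap a consensus match, stood in 3 of the 17 windows and in 0.413% of all windows. Capitals mark the matched letters in the following 30-base stretches, each printed on the strand of its gene.
NFKB1, chr4:102501300-102501329, plus strand: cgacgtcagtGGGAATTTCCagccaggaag
NFKB2, chr10:102394462-102394491, plus strand: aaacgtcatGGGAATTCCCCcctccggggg
NFKB2, chr10:102394490-102394519, plus strand: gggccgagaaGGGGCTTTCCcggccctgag
NFKB2, chr10:102395519-102395548, plus strand: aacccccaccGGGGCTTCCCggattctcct
NFKB2, chr10:102395674-102395703, plus strand: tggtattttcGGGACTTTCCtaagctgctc
NFKBIA, chr14:35404811-35404840, minus strand: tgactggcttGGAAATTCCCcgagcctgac
TNFAIP3, chr6:137867188-137867217, plus strand: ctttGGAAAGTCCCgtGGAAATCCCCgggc
BIRC3, chr11:102317275-102317304, plus strand: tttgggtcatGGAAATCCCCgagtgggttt
BIRC3, chr11:102317339-102317368, plus strand: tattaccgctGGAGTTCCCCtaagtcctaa
ICAM1, chr19:10270924-10270953, plus strand: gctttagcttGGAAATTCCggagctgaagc

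NFKB2 held 4 separate matches upstream of 2 of its 3 start sites, and TNFAIP3 and BIRC3 each held 2 upstream of 1. The ICAM1 stretch matched GGAAATTCC and not the consensus, while the stretches of NFKB1 and NFKBIA matched both. No consensus match lay in the windows of TRAF1, TNFAIP2 or SOD2. These are matches of letters in RefSeq sequence, and no binding was measured here.

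The libraries held 3398261 to 5382295 counts, of which 6.94% to 9.45% fell on genes of the mitochondrial chromosome. Markers of the line were abundant: the summed level of VIM, CD44, CAV1, EGFR, KRT18, KRT8, ANXA1 and AXL was 4449 to 6511 CPM (counts scaled to a common library size) over all libraries. The oestrogen receptor ESR1 had 97 counts and the progesterone receptor PGR 1 count over all 29 libraries. Parental vehicle 3 and resistant decitabine 2 stood apart, with scores of 33.1 and 37.9 on the second principal component, where no other library exceeded 17.8. Calls of single members that were lost without either are given with that loss or with the number of fits that kept the call. Pathway genes and markers are given with all libraries only. The correlations were not run without these 2 libraries as such.

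The level of the members spanned a wide range, on the CPM scale of 3′ tags, which does not grow with transcript length (the plot of members by library). NFKBIA, which encodes IkB alpha, had the highest level, with group means from 204 to 397 CPM. BIRC3, an apoptosis inhibitor and ubiquitin ligase, and RELB followed, with group means from 54.1 to 157 CPM and from 46.2 to 131 CPM. NFKB1, the precursor of p50, varied least, from 24.0 CPM in parental vehicle tumours to 33.4 CPM in resistant doxorubicin tumours, and no neighbouring groups in its order of means differed by more than their SD. ICAM1, an adhesion molecule that binds leukocyte integrins, varied most, from 5.41 CPM in resistant vehicle tumours to 41.7 CPM in parental combination tumours, a ratio of 7.71. The group means of TNFAIP3 spanned 3.73-fold, those of SOD2 3.11-fold and those of RELB 2.83-fold. In a tumour sample, fewer cells of a type and less RNA per cell cannot be told apart.

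**Figure D1:**
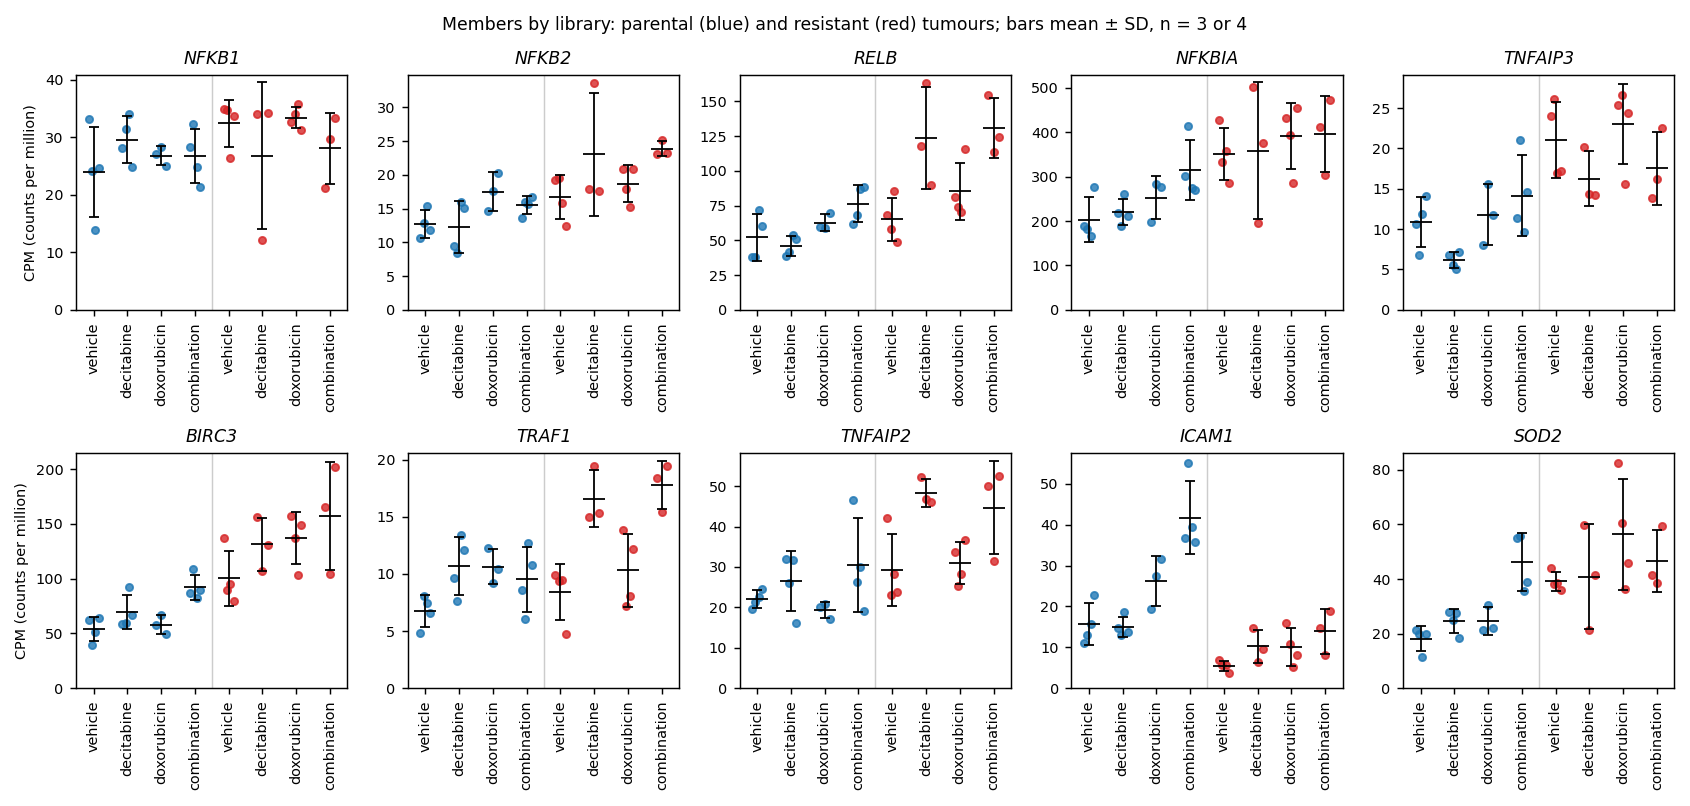
Level of each member in CPM (vertical axis, linear from 0) in every library (points), by treatment, for parental (blue) and resistant (red) tumours, with group means and SD (bars, n = 3 or 4). ICAM1 is the member whose resistant groups lie low, with means from 5.41 to 13.9 CPM, while resistant groups of BIRC3 lie at 100.4 to 157 CPM.

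Without drug, the resistant tumours had more transcript of both feedback inhibitors, of BIRC3 and of SOD2, and less of ICAM1. In the contrast of resistant with parental vehicle tumours, 4 members rose and 1 fell, against 20.1% of all genes tested (8.66% higher, 11.5% lower). The median log2 change of the 10 members was 0.42, against 0.02 over all genes. The vehicle groups did not overlap for the same 5 members, against 22.3% of all genes. The 3 subunits each had positive fitted changes, of 0.43 for NFKB1 (SE 0.23), 0.40 for NFKB2 (SE 0.21) and 0.32 for RELB (SE 0.21), and none passed the test (edgeR adjusted p = 0.189, 0.1996 and 0.314). TRAF1 and TNFAIP2 did not pass either (log2 0.31 and 0.41, adjusted p = 0.447 and 0.228).

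ICAM1 was at 11.1, 13.04, 15.7 and 22.8 CPM in the parental vehicle libraries and at 6.80, 5.57, 5.65 and 3.62 CPM in the resistant vehicle libraries. Every resistant library lay below every parental one, a fall by 1.53 on the log2 scale (SE 0.32, edgeR adjusted p = 0.00106). These values rest on 269 counts in the parental and 91 counts in the resistant group.

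SOD2, the superoxide dismutase of mitochondria, was at 21.3, 20.0, 11.3 and 19.9 CPM in parental vehicle libraries and at 43.95, 38.0, 38.7 and 35.9 CPM in resistant ones. The groups did not overlap, and the fitted change was 1.10 (SE 0.27, edgeR adjusted p = 0.0038). Parental vehicle 3 gave the lowest of these values and is also 1 of the libraries that stood apart, and the change was called without it.

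TNFAIP3, the ubiquitin-editing enzyme A20, was at 10.7, 6.74, 11.8 and 14.1 CPM against 24.0, 26.1, 17.0 and 17.2 CPM in resistant vehicle libraries. BIRC3 was at 62.1, 39.3, 51.2 and 63.7 CPM against 137, 89.7, 95.4 and 79.6 CPM. NFKBIA was at 189, 182, 166 and 277 CPM against 428, 333, 357 and 286 CPM. In each of these the lowest resistant library was above the highest parental one, by a narrow margin for NFKBIA. The fitted changes were 0.96 for TNFAIP3 (SE 0.25, edgeR adjusted p = 0.00719), 0.89 for BIRC3 (SE 0.20, adjusted p = 0.00204) and 0.79 for NFKBIA (SE 0.22, adjusted p = 0.0122).

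Genes used as markers of other cell types differed between the vehicle groups too. The injected cells were human carcinoma cells, so host cells in these tumours are mouse cells, while the counts are of human genes. How mouse reads were treated is not given. Transcripts of the tumour cells and mouse reads counted on human genes therefore cannot be told apart, here or in the marker values below. The summed level of 12 myeloid genes was 73 to 113 CPM in parental and 117.5 to 150.2 CPM in resistant vehicle libraries, with CTSS and LAPTM5 higher and CSF1R lower among 7 tested, while the leukocyte marker PTPRC was at 1.30 to 3.71 and 1.13 to 6.59 CPM. LAPTM5 gave most counts of this list, 11085 over all libraries. TYROBP, ITGAM, CD163, LYZ and CD14 had 2, 5, 24, 40 and 70 counts and were not tested. Both lymphoid genes tested, IL7R and CD8A, were higher, whereas CD3E and MS4A1, which define T and B cells, had no count in any library. Of 5 endothelial genes tested, PECAM1 and TIE1 were lower, and the summed fibroblast markers were at 797.5 to 1241 and 654 to 2096 CPM. The fibroblast sum is mostly collagen. Over all libraries COL1A1 held 96418 counts, COL3A1 20340 and COL1A2 5180, while DCN, LUM and THY1 held 68, 31 and 33 and were not tested. The part of all these markers in the differences of the members was not tested.

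Averaged over the 4 treatments, 9 of the 10 members differed between the lines: 8 were higher in resistant tumours and ICAM1 was lower. The share called among all genes was 46.0% in this comparison (22.6% higher, 23.4% lower), the highest background of all comparisons made here. BIRC3 showed a log2 change of 0.96 (SE 0.11, edgeR adjusted p = 1.98e-08), TNFAIP3 of 0.91 (SE 0.13, adjusted p = 2.14e-06) and SOD2 of 0.76 (SE 0.14, adjusted p = 4.48e-05). RELB reached 0.74 (SE 0.11), TNFAIP2 0.63 (SE 0.12), NFKBIA 0.61 (SE 0.12), NFKB2 0.51 (SE 0.11) and TRAF1 0.45 (SE 0.13). ICAM1 fell by 1.25 (SE 0.16, adjusted p = 1.87e-07). NFKB1 alone did not pass, at 0.17 (SE 0.12, adjusted p = 0.246), although it did without the 2 libraries that stood apart (0.21, adjusted p = 0.0373). The 9 calls held when any 1 of the 29 libraries was left out. The summed lymphoid markers were at 3.25 to 11.1 CPM over all parental and 15.2 to 41.7 CPM over all resistant libraries. IL7R alone was at 5.27 CPM in the mean of the parental groups and at 22.3 CPM in that of the resistant groups. The genes of this list that were not tested had at most 12 counts each over all 29 libraries. Among single markers CTSS (1.18, adjusted p = 2.67e-08), FCER1G, CDH5, IL7R, CD8A and FABP4 were higher, and PECAM1 (-0.59, adjusted p = 0.000277) and CSF1R were lower. The adipocyte sum, which holds FABP4, reached 32.87 CPM in 1 resistant combination library and at most 8.631 CPM in every other library. Of the 8 markers of the line itself, CD44, CAV1, KRT8 and AXL were higher and VIM was lower (-0.30, adjusted p = 0.00314). The part of these genes in the members' differences was not tested.

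**Figure D2:**
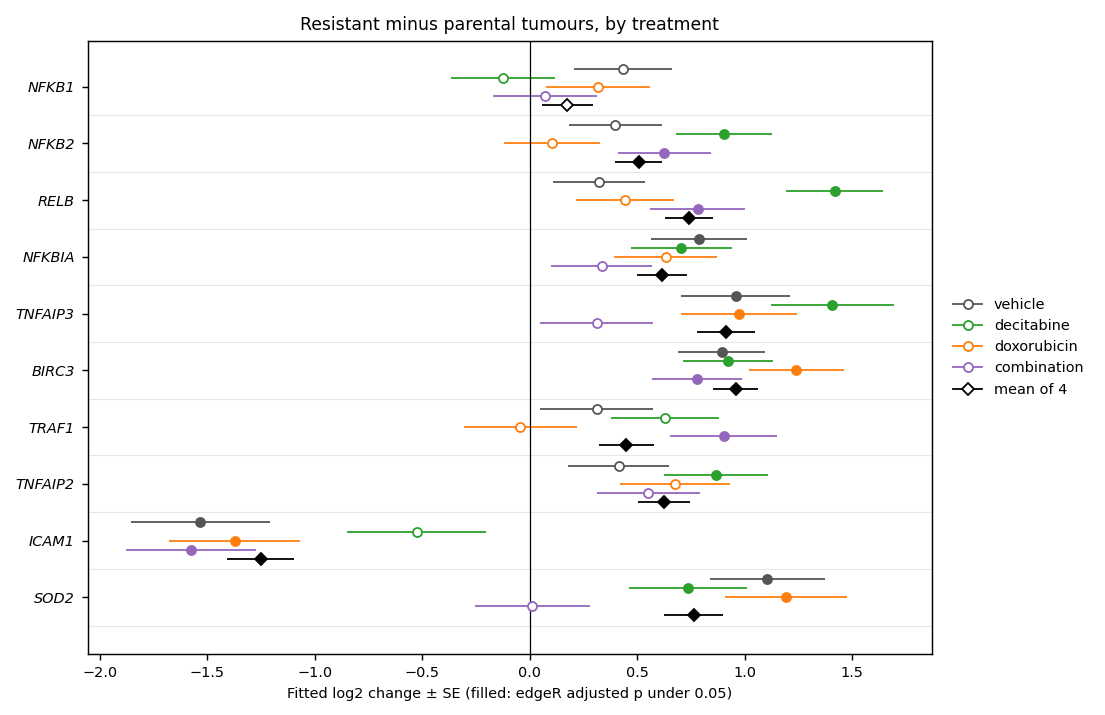
Fitted log2 change of resistant against parental tumours (horizontal axis, bars are SE) for each member under each treatment (circles, coloured) and averaged over the 4 treatments (black diamonds), filled where the edgeR adjusted p is under 0.05. All ICAM1 points lie left of 0, RELB lies farthest right under decitabine at 1.42, and SOD2 under the combination lies at 0.01.

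The difference between the lines was also fitted under each drug. Under decitabine 7 members were higher and none lower, against 26.8% of all genes called (13.7% higher), and the groups of 6 members did not overlap, against 31.1% of all genes. RELB, the non-canonical partner of p52, was at 38.5, 41.8, 53.6 and 50.8 CPM in the parental decitabine libraries and at 118, 163 and 89.9 CPM in the resistant ones, so that the groups lay well apart. Its log2 change was 1.42 (SE 0.22, edgeR adjusted p = 3.72e-05), against 0.32 under vehicle. TNFAIP3 was at 6.84, 5.56, 5.07 and 7.195 CPM against 20.1, 14.4 and 14.3 CPM, a change of 1.41 (SE 0.28, adjusted p = 0.000506).

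Also under decitabine, TNFAIP2, a gene induced by tumour necrosis factor, was at 32.1, 26.1, 31.8 and 16.0 CPM in parental and at 52.4, 46.9 and 45.99 CPM in resistant libraries. Its groups did not overlap, and the change was 0.86 (SE 0.24, edgeR adjusted p = 0.00848). BIRC3 (0.92), NFKB2 (0.90), SOD2 (0.74) and NFKBIA (0.70) were called as well, with adjusted p of 0.00183, 0.00339, 0.0479 and 0.0279. For NFKB2, the precursor p100 of p52, the resistant libraries were at 17.9, 33.6 and 17.7 CPM. The call rested on the highest of these, from resistant decitabine 2: without it the change was 0.54 (adjusted p = 0.0905). The calls of SOD2 and NFKBIA were kept in 12 and 24 of the 29 fits without 1 library, and without resistant decitabine 1 their changes were 0.35 and 0.38 (adjusted p = 0.382 and 0.263). NFKB1 and TRAF1 did not pass (log2 -0.13 and 0.63, adjusted p = 0.733 and 0.063). Among markers, LAPTM5, CTSS and FCER1G of 7 myeloid genes tested, CDH5 of 5 endothelial genes tested and both lymphoid genes tested were higher, and their part in the result was not tested.

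Under doxorubicin 3 members were higher and ICAM1 was lower, against 13.9% of all genes (5.88% higher, 8.05% lower), while the groups of 8 members did not overlap, against 27.8% of all genes. The margin was narrow for RELB, NFKBIA and TNFAIP3. Their highest parental libraries were at 69.58, 284.3 and 15.59 CPM, and their lowest resistant ones at 70.21, 285.3 and 15.65 CPM. BIRC3 was at 57.9, 66.7 and 49.3 CPM in parental and at 157, 137.5, 103.5 and 149 CPM in resistant doxorubicin libraries, a log2 change of 1.24 (SE 0.22, edgeR adjusted p = 0.000223). SOD2 rose by 1.19 (SE 0.28, adjusted p = 0.00425) and TNFAIP3 by 0.97 (SE 0.27, adjusted p = 0.014), the second not without parental doxorubicin 1 (adjusted p = 0.122). ICAM1 fell by 1.37 (SE 0.31, adjusted p = 0.00227). The other 6 members did not pass: NFKB1 was at 0.32, NFKB2 at 0.10, RELB at 0.44, NFKBIA at 0.63, TNFAIP2 at 0.67 and TRAF1 at -0.04, with adjusted p from 0.0796 to 0.942. Of these, NFKBIA (edgeR adjusted p = 0.0824) was called without the 2 libraries that stood apart (0.63, adjusted p = 0.0298). CTSS and both lymphoid genes tested were higher, and LAPTM5, CSF1R and PECAM1 were lower, and their part in the result was not tested.

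Under the combination NFKB2, RELB, BIRC3 and TRAF1 were higher and ICAM1 lower, against 21.9% of all genes (10.6% higher, 11.4% lower), and the groups of 4 did not overlap, against 28.9%. TRAF1, an adaptor of tumour necrosis factor receptors, was at 8.57, 6.09, 12.7 and 10.8 CPM in parental and at 18.4, 15.5 and 19.5 CPM in resistant combination libraries, a log2 change of 0.90 (SE 0.25, edgeR adjusted p = 0.011). Its groups did not overlap. SOD2, in contrast, was at 54.9, 55.6, 35.5 and 38.7 CPM against 41.4, 38.7 and 59.5 CPM, and its groups lay over one another (log2 0.01, SE 0.27, adjusted p = 0.98). The fall of ICAM1, by 1.58 (SE 0.30, adjusted p = 0.00053), was called under vehicle, doxorubicin and the combination but not under decitabine (log2 -0.53, SE 0.32, adjusted p = 0.228). NFKB2 rose by 0.62, RELB by 0.78 and BIRC3 by 0.78 (adjusted p = 0.0388, 0.0129 and 0.00938). The call of RELB was lost without resistant combination 1 (adjusted p = 0.0852), that of BIRC3 without resistant combination 3 (adjusted p = 0.0751) and that of NFKB2 without any of these or of 4 further combination libraries (adjusted p up to 0.113). NFKB1, NFKBIA, TNFAIP3 and TNFAIP2 did not pass (log2 0.07, 0.33, 0.31 and 0.55, adjusted p from 0.0961 to 0.861). LAPTM5, CTSS, CDH5, FABP4 and both lymphoid genes tested were higher, and their part in the result was not tested. The summed adipocyte markers, FABP4 among them, were at 2.01, 2.165 and 32.87 CPM in the resistant combination libraries.

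Decitabine alone changed few members. In parental tumours none of the 10 passed, against 1.67% of all genes, with 2 members at an unadjusted p under 0.05 in edgeR and 0 called by DESeq2. The groups of 0 members were apart, against 9.46% of all genes. These 2 were TNFAIP3, at 10.7, 6.74, 11.8 and 14.1 CPM with vehicle and 6.84, 5.56, 5.07 and 7.195 CPM with decitabine (log2 -0.81, SE 0.28, edgeR adjusted p = 0.11), and TRAF1 (log2 0.66, SE 0.25, adjusted p = 0.149). The groups of TNFAIP3 overlapped through 1 vehicle library. Of the others, SOD2 was at 0.44, BIRC3 at 0.36, NFKB1 at 0.30, TNFAIP2 at 0.27 and NFKBIA at 0.11, and ICAM1, NFKB2 and RELB were at -0.06, -0.05 and -0.18, with adjusted p from 0.332 to 0.927.

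In resistant tumours decitabine raised RELB and TRAF1, 2 of 10 members against 3.33% of all genes (2.03% higher), and with TNFAIP2 they made 3 members whose groups did not overlap, against 16.0% of all genes. RELB was at 68.0, 58.3, 85.5 and 48.6 CPM with vehicle and at 118, 163 and 89.9 CPM with decitabine, with no overlap (log2 0.92, SE 0.22, edgeR adjusted p = 0.0198). TRAF1 was at 9.95, 9.38, 9.497 and 4.75 CPM with vehicle and at 15, 19.5 and 15.3 CPM with decitabine, again with no overlap (log2 0.98, SE 0.26, adjusted p = 0.0334). Both calls depended on single libraries: without resistant decitabine 2 the changes were 0.68 and 0.86, with adjusted p of 0.211 and 0.176, and without both libraries that stood apart the adjusted p was 0.147 and 0.167. They were also lost without resistant vehicle 2 or 4 (RELB adjusted p = 0.0549 and 0.0716, TRAF1 adjusted p = 0.0533 and 0.116), and TRAF1 without resistant decitabine 3 (adjusted p = 0.0617). ICAM1 and TNFAIP2 had fitted changes of 0.94 (SE 0.36) and 0.72 (SE 0.24) and did not pass (adjusted p = 0.135 and 0.0921). NFKB2, BIRC3, SOD2 and NFKBIA were at 0.45, 0.39, 0.07 and 0.03, and NFKB1 and TNFAIP3 at -0.25 and -0.36 (adjusted p from 0.256 to 0.959).

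Resistant decitabine 2 was unlike its group in more than RELB. It had the lowest NFKB1 of all 29 libraries, 12.2 CPM against 34.1 and 34.3 CPM in the other libraries of its group. It was also low for NFKBIA (196 CPM against 503 and 376) and SOD2 (21.5 CPM against 59.8 and 41.3), and it had the highest NFKB2 and RELB of any library. In the same contrast, the summed myeloid markers were at 182 to 231 CPM with decitabine against 117.5 to 150.2 CPM with vehicle, with LAPTM5 and FCER1G called among 7 tested. LAPTM5 alone had group means of 140.6 CPM with decitabine and 78.45 CPM with vehicle. The summed endothelial markers were at 38.3 to 51.4 CPM against 21.5 to 29.4 CPM, with ENG called among 5 tested, and IL7R was called too. Their part in the result was not tested.

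Averaged over the lines and over tumours with and without doxorubicin, decitabine raised 5 members and lowered none, against 6.80% of all genes (3.96% higher). TRAF1 rose by 0.57 on the log2 scale (SE 0.13, edgeR adjusted p = 0.00627), TNFAIP2 by 0.55 (SE 0.12, adjusted p = 0.00529), RELB by 0.41 (SE 0.11, adjusted p = 0.0224) and BIRC3 by 0.40 (SE 0.10, adjusted p = 0.0176). TRAF1, TNFAIP2 and BIRC3 held whichever library was left out, and RELB was lost without resistant combination 1 (adjusted p = 0.0519). ICAM1 passed narrowly (0.51, SE 0.16, adjusted p = 0.0466) and was called in only 7 of the 29 fits without 1 library, with adjusted p up to 0.116. TNFAIP3 had a negative fitted change that did not pass (-0.32, SE 0.13, adjusted p = 0.156). NFKB1, NFKB2, NFKBIA and SOD2 did not pass either (-0.05, 0.14, 0.12 and 0.29, adjusted p from 0.236 to 0.87). The same average raised LAPTM5, CTSS and FCER1G among 7 myeloid genes tested and PECAM1, ENG and TEK among 5 endothelial genes tested, besides IL7R and FABP4, and their part in the members' changes was not tested. For FABP4, 1 resistant combination library had an adipocyte sum of 32.87 CPM, far above every other library.

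Doxorubicin alone changed no member by the test. In parental tumours 0 of 10 passed against 0.230% of all genes, with 2 members (TRAF1 and ICAM1) at an unadjusted p under 0.05 in edgeR and 0 called by DESeq2. The groups of TRAF1 and SOD2 did not overlap, against 10.8% of all genes. Fitted changes ran from -0.18 for TNFAIP2 through 0.10 for BIRC3, 0.12 for TNFAIP3, 0.16 for NFKB1, 0.27 for RELB, 0.31 for NFKBIA, 0.44 for SOD2, 0.46 for NFKB2 and 0.66 for TRAF1 to 0.73 for ICAM1. In resistant tumours 0 of 10 passed against 0.00% of all genes, with 3 members (BIRC3, ICAM1 and SOD2) at an unadjusted p under 0.05 in edgeR and 0 called by DESeq2. All 10 fitted changes were positive in resistant tumours, from 0.04 for NFKB1, 0.08 for TNFAIP2, 0.13 for TNFAIP3, 0.16 for NFKBIA, 0.16 for NFKB2 and 0.31 for TRAF1 to 0.39 for RELB, 0.45 for BIRC3, 0.53 for SOD2 and 0.89 for ICAM1, with a median of 0.23 against -0.0017 over all genes, and the groups of every member overlapped, while 3.89% of all genes had groups apart.

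Averaged over the lines and over tumours with and without decitabine, doxorubicin raised ICAM1 and SOD2, 2 of 10 members against 2.37% of all genes (0.830% higher). ICAM1 rose by 0.88 (SE 0.16, edgeR adjusted p = 0.012), with the p-value ranked number 4 of the 13495 genes, and it was called whichever library was left out. SOD2 rose by 0.51 (SE 0.14, adjusted p = 0.0433), a call kept in 11 of the 29 fits without 1 library. RELB had a fitted change of 0.37 and did not pass (SE 0.11, adjusted p = 0.0697), while it was called by DESeq2 (adjusted p = 0.0343) and without the 2 libraries that stood apart (0.48, adjusted p = 0.0175). TNFAIP3 (0.39), BIRC3 (0.30), NFKBIA (0.28), NFKB2 (0.26, adjusted p = 0.194), TRAF1 (0.23), NFKB1 (0.03) and TNFAIP2 (-0.004) did not pass, with adjusted p from 0.106 to 0.995. The fit without the 2 libraries also called NFKB2 (0.37, adjusted p = 0.0446) and did not call SOD2 (adjusted p = 0.0667). In the same contrast the 5 fibroblast genes tested had a median fitted change of -0.58 and PECAM1 was called higher, and their part in the result was not tested.

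**Figure D3:**
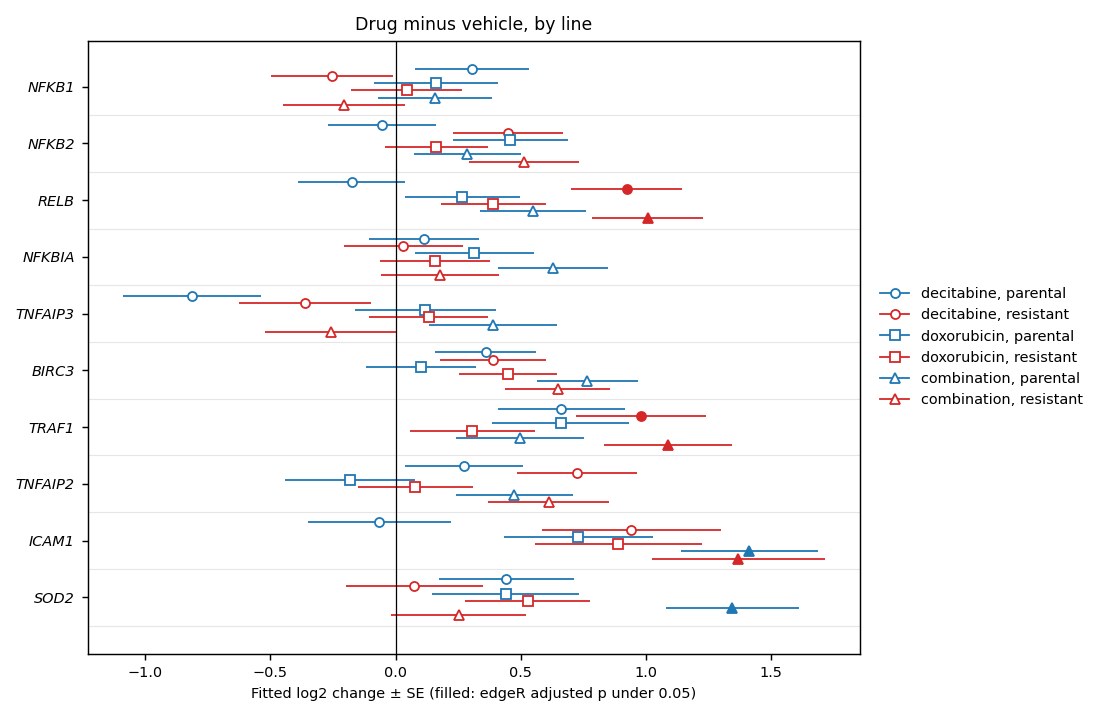
Fitted log2 change against vehicle (horizontal axis, bars are SE) of each member for decitabine (circles), doxorubicin (squares) and the combination (triangles), in parental (blue) and resistant (red) tumours, filled where the edgeR adjusted p is under 0.05. The filled points are RELB and TRAF1 in resistant tumours and ICAM1 and SOD2 under the combination, and the doxorubicin points are all open.

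Of the 3 treatments set against vehicle, the combination gave the largest fitted change of ICAM1 in both lines and of SOD2 in parental tumours. In parental tumours 2 members rose, against 1.03% of all genes (0.645% higher), and 3 had groups that did not overlap, against 10.1%. ICAM1 went from 11.1, 13.04, 15.7 and 22.8 CPM with vehicle to 36.7, 55.0, 39.4 and 35.8 CPM with the combination, with a wide gap between the groups (log2 1.41, SE 0.27, edgeR adjusted p = 0.00852). SOD2 went from 21.3, 20.0, 11.3 and 19.9 CPM to 54.9, 55.6, 35.5 and 38.7 CPM (log2 1.35, SE 0.26, adjusted p = 0.00968), and was not called without parental vehicle 3, its lowest library (adjusted p = 0.0567).

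BIRC3 was at 86.8, 109, 82.5 and 89.8 CPM in parental combination tumours, above every vehicle library (39.3 to 63.7 CPM), with a log2 change of 0.77 (SE 0.20) that missed the threshold in edgeR (adjusted p = 0.0566) and passed in DESeq2 (adjusted p = 0.0188). The other 7 members had fitted changes from 0.16 for NFKB1, 0.29 for NFKB2, 0.39 for TNFAIP3, 0.48 for TNFAIP2 and 0.497 for TRAF1 to 0.55 for RELB and 0.63 for NFKBIA, with adjusted p from 0.141 to 0.728. The summed fibroblast markers, mostly collagen counts, were at 357 to 770 CPM in these tumours and at 797.5 to 1241 CPM with vehicle, and IL7R was called higher. Their part in the result was not tested.

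In resistant tumours the combination raised RELB, TRAF1 and ICAM1, 3 of 10 members against 1.13% of all genes (0.911% higher), and together with NFKB2 they made 4 members without overlap, against 13.4%. RELB was at 155, 114 and 124 CPM against 68.0, 58.3, 85.5 and 48.6 CPM with vehicle, and the groups did not overlap (log2 1.007, SE 0.22, edgeR adjusted p = 0.0207). TRAF1 was at 18.4, 15.5 and 19.5 CPM against 9.95, 9.38, 9.497 and 4.75 CPM, also without overlap (log2 1.09, SE 0.26, adjusted p = 0.0296). ICAM1 was at 14.7, 7.98 and 18.9 CPM against 6.80, 5.57, 5.65 and 3.62 CPM, with its lowest combination library close to the highest vehicle library (log2 1.37, SE 0.34, adjusted p = 0.0458). Each call was lost without resistant combination 1 (adjusted p = 0.164, 0.137 and 0.182) and without resistant vehicle 2 or 4, RELB also without resistant vehicle 1 and TRAF1 without resistant combination 3. ICAM1 was called in only 12 of the 29 such fits. BIRC3 (0.65), TNFAIP2 (0.61), NFKB2 (0.51), SOD2 (0.25), NFKBIA (0.18), NFKB1 (-0.21) and TNFAIP3 (-0.26) did not pass, with adjusted p from 0.135 to 0.742. The summed myeloid markers were at 168 to 185 CPM and the endothelial ones at 38.5 to 72.5 CPM, above the vehicle libraries, with FCER1G and PECAM1 called, and their part in the result was not tested. The changes against vehicle share the vehicle libraries of their line, so they are not independent of one another.

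Set against decitabine alone in parental tumours, the combination had higher ICAM1, TNFAIP3, SOD2 and RELB, 4 of 10 members against 6.63% of all genes (2.73% higher), and with NFKBIA they made 5 members without overlap, against 15.9%. ICAM1 was at 14.6, 13.04, 18.5 and 13.7 CPM with decitabine, far below the combination libraries (log2 1.48, SE 0.27, edgeR adjusted p = 0.00338), and this call held whichever library was left out. TNFAIP3 was at 6.84, 5.56, 5.07 and 7.195 CPM with decitabine and at 11.4, 21.0, 9.69 and 14.6 CPM with the combination (log2 1.20, SE 0.27, adjusted p = 0.00827). SOD2 rose by 0.90 (SE 0.26, adjusted p = 0.032) and RELB by 0.72 (SE 0.21, adjusted p = 0.0365). TNFAIP3 was lost without parental decitabine 3 or parental combination 2 (adjusted p = 0.053 and 0.0582), SOD2 in 5 and RELB in 7 of the 29 fits without 1 library. NFKBIA (0.52), BIRC3 (0.41), NFKB2 (0.34), TNFAIP2 (0.20), NFKB1 (-0.15) and TRAF1 (-0.17) did not pass, with adjusted p from 0.156 to 0.738. The summed fibroblast markers, mostly collagen counts, were at 741 to 2057 CPM with decitabine alone and at 357 to 770 CPM with the combination. Their part in the result was not tested.

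No member passed in the other contrasts between treated groups. For the combination against decitabine in resistant tumours the background was 0.00%, with 0 members at an unadjusted p under 0.05 in edgeR, 0 called by DESeq2 and 0 without overlap (5.95% of all genes). Fitted changes there were 0.43 for ICAM1, 0.26 for BIRC3, 0.18 for SOD2, 0.15 for NFKBIA, 0.11 for TRAF1, 0.10 for TNFAIP3, 0.08 for RELB, 0.07 for NFKB2, 0.05 for NFKB1 and -0.11 for TNFAIP2. Against doxorubicin alone, 0 members passed in parental tumours (0.304% of all genes) and 0 in resistant tumours (0.660%), with 4 and 3 members at an unadjusted p under 0.05 in edgeR and 0 called by DESeq2 in either. The groups of 3 and 2 members did not overlap, against 12.6% and 12.7% of all genes. The 4 in parental tumours were SOD2 (log2 0.91), ICAM1 (0.68), BIRC3 (0.66) and TNFAIP2 (0.66), with edgeR adjusted p from 0.212 to 0.352. The others were NFKBIA (0.32), RELB (0.28), TNFAIP3 (0.27), NFKB1 (-0.004), TRAF1 (-0.16) and NFKB2 (-0.17). The 3 in resistant tumours were TRAF1 (0.78), RELB (0.62) and TNFAIP2 (0.53), with adjusted p from 0.188 to 0.368. The others were ICAM1 (0.48), NFKB2 (0.35), BIRC3 (0.20), NFKBIA (0.02), NFKB1 (-0.25), SOD2 (-0.28) and TNFAIP3 (-0.39).

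Whether a drug acted differently in the lines was tested as a difference of changes. For decitabine, averaged over tumours with and without doxorubicin, 0 of 10 members passed in edgeR against 3.32% of all genes, with 4 members at an unadjusted p under 0.05. RELB came nearest, with a fitted difference of resistant minus parental of 0.72 (SE 0.22, adjusted p = 0.0586), followed by SOD2 at -0.77 (SE 0.27, adjusted p = 0.0827). DESeq2 called both (adjusted p = 0.0303 and 0.0483). NFKB2 (0.51, SE 0.22) and TRAF1 (0.63, SE 0.26) did not pass in edgeR (adjusted p = 0.132 and 0.117), nor did ICAM1 (0.40, SE 0.31, adjusted p = 0.411). TNFAIP2 (0.16), TNFAIP3 (-0.11), NFKBIA (-0.19), BIRC3 (-0.22) and NFKB1 (-0.40) had adjusted p from 0.272 to 0.831. For doxorubicin 0 of 10 passed against 0.00% of all genes, with 0 at an unadjusted p under 0.05 in edgeR and 0 called by DESeq2. Its fitted differences were 0.10 for BIRC3, 0.04 for NFKB1, -0.03 for TNFAIP2, -0.04 for TRAF1, -0.26 for RELB, -0.26 for NFKBIA, -0.29 for NFKB2, -0.32 for SOD2, -0.44 for ICAM1 and -0.54 for TNFAIP3.

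Within each line the members were correlated across libraries on the log2(CPM + 1) scale, in 90 tests (45 pairs in each line). In parental tumours (n = 15) 10 pairs passed a permutation test with 100000 resamples, all positive, and in resistant tumours (n = 14) 17 passed, of which 15 were positive. The 7 pairs that passed in both lines were NFKB2 with RELB, and all 6 pairs among NFKBIA, BIRC3, ICAM1 and SOD2. The libraries of a line span 4 treatments and share depth and makeup of the tumour, so these coefficients describe the libraries and not a mechanism.

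NFKBIA and ICAM1 had a Pearson r of 0.887 in parental libraries (two-sided permutation p 2e-05, adjusted 0.0009) and of 0.667 in resistant libraries (permutation p 0.00805, adjusted 0.0348). Their Spearman coefficient was 0.843 and 0.78 (permutation p 0.0002 and 0.00165, adjusted 0.0045 and 0.0124). Without the 2 libraries farthest from the median of NFKBIA, r was 0.875 and 0.756.

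BIRC3 and ICAM1 had r of 0.651 in parental libraries (permutation p 0.00888, adjusted 0.036) and of 0.917 in resistant libraries (permutation p 1e-05, the smallest these resamples can give, adjusted 0.0009). The Spearman coefficient was 0.554 and 0.943 (permutation p 0.0351 and 1e-05, adjusted 0.109 and 0.0009), and r without the 2 libraries farthest from the median of BIRC3 was 0.461 and 0.852. The difference of these coefficients between the lines was not tested.

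NFKB2 and RELB, the pair of the non-canonical route, had r of 0.725 in parental libraries (permutation p 0.00238, adjusted 0.0143) and of 0.782 in resistant libraries (permutation p 0.00089, adjusted 0.00801). The Spearman coefficient was 0.629 and 0.688 (permutation p 0.0147 and 0.00849, adjusted 0.0602 and 0.0478), and r without the 2 farthest libraries was 0.616 and 0.577.

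When each library was expressed as its deviation from its own treatment group, a check added after seeing the data, the 27 passing coefficients kept their sign, and 1 of the 10 parental and 8 of the 17 resistant pairs passed a permutation test within groups. The 6 pairs among NFKBIA, BIRC3, ICAM1 and SOD2 all passed it in resistant libraries, with r from 0.699 for BIRC3 with SOD2 to 0.886 for ICAM1 with SOD2. Resistant decitabine 2 was the lowest of its group for each of these genes, and the pairs were not tested without it. In parental libraries NFKBIA with ICAM1 was the pair that passed both tests (r = 0.864, adjusted permutation p = 0.0478), and ICAM1 with SOD2 came to 0.176. NFKB1 with SOD2, which had not passed over all parental libraries (r = 0.52, adjusted permutation p = 0.117), passed within groups (r = 0.834, adjusted permutation p = 0.0315). Parental vehicle 3 was the lowest of its group for both genes. It was at 13.9 CPM for NFKB1 (others 24.1 to 33.2) and at 11.3 CPM for SOD2 (others 19.9 to 21.3). Within-group coefficients were computed with all libraries only. Over all parental libraries, r was 0.362 without the 2 farthest from the median of NFKB1. With Spearman coefficients 4 of the 10 parental and 13 of the 17 resistant pairs passed.

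In resistant libraries RELB also went with TRAF1 (r = 0.884, permutation p 3e-05, adjusted 0.0009, Spearman coefficient 0.881, permutation p 4e-05, adjusted 0.0018, and r = 0.812 without the 2 farthest libraries). Both rose with decitabine in this line, and within treatment groups the pair did not pass (r = 0.658, adjusted permutation p = 0.137). In the same libraries NFKB1 went against NFKB2 (r = -0.691, permutation p 0.00921, adjusted 0.036, Spearman coefficient -0.574, adjusted 0.109) and against RELB (r = -0.652, permutation p 0.00353, adjusted 0.0199, Spearman coefficient -0.662, adjusted 0.052). Without the 2 libraries farthest from the median of NFKB1 these 2 coefficients were -0.144 and -0.334, so that they rest on those libraries. Within treatment groups, with all resistant libraries kept, NFKB1 with RELB passed (r = -0.701, adjusted permutation p = 0.0478). NFKB1 with NFKB2 did not pass there (r = -0.675, adjusted permutation p = 0.39).

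**Figure D4:**
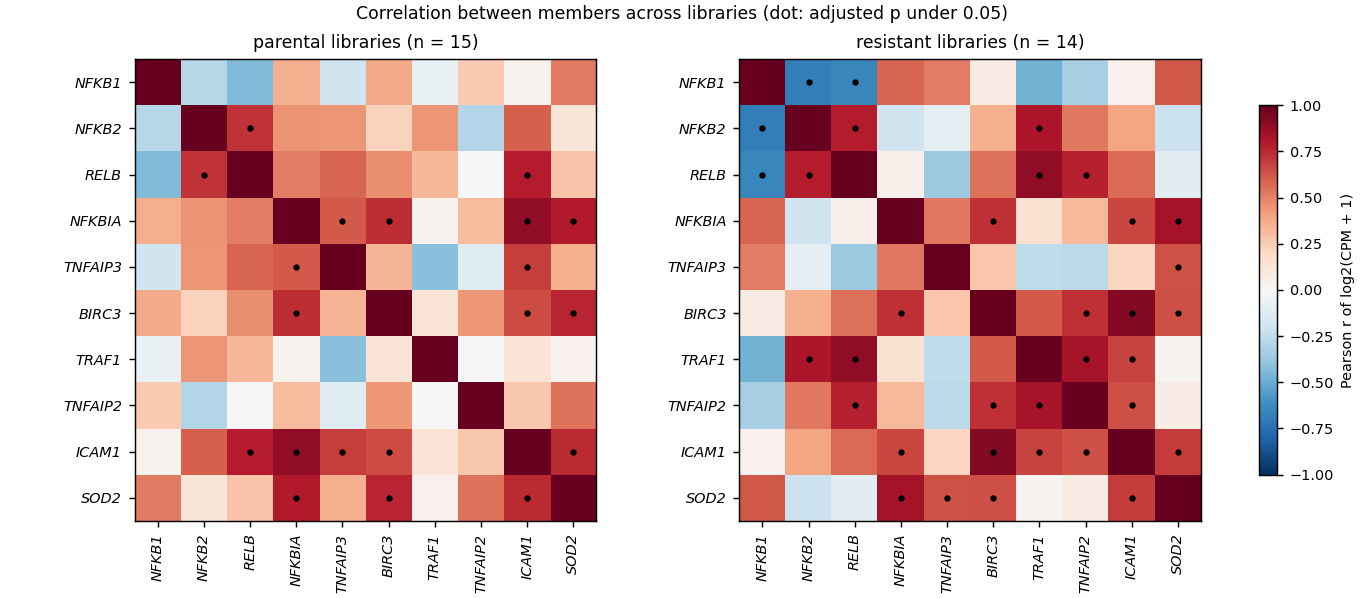
Pearson r of log2(CPM + 1) between members over the 15 parental libraries (left) and the 14 resistant libraries (right), from blue (-1) to red (1), with dots where the permutation p adjusted over 90 tests is under 0.05. Dots join NFKBIA, BIRC3, ICAM1 and SOD2 in both panels, while TRAF1 carries dots in the resistant panel and none in the parental one.

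Among all genes tested, those whose pattern was most like 3 of the members in both lines were sought by the smaller of the 2 within-line Pearson r. For NFKBIA they were the chemokine CXCL1 (0.876 in parental and 0.872 in resistant libraries), the autophagy adaptor SQSTM1 (0.845 and 0.8994) and the syndecan SDC4 (0.818 and 0.930). For NFKB2 they were GPSM3 (0.752 and 0.801), the member RELB itself (0.725 and 0.782) and FAM174C (0.801 and 0.724). For ICAM1 they were NAV2-AS6 (0.871 and 0.851), NFE4 (0.793 and 0.889) and DHRS7 (0.804 and 0.792). They are given with n = 15 and n = 14 libraries, as a ranking with no test.

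The rest of the pathway was described from 6 lists with 108 genes, of which 88 were tested. Averaged over treatments, 33 were higher and 13 lower in resistant tumours, against 46.0% of all genes called, and the median log2 change was 0.11. Of 35 other target genes tested 19 were higher and 3 lower, with a median of 0.42 against 0.62 for the 10 members and -0.0035 for all genes. LTB, the membrane-anchored lymphotoxin beta, rose from 5.00 to 23.3 CPM in the mean of the groups (log2 2.38, SE 0.25, edgeR adjusted p = 2.1e-08). PTGS2, the inducible cyclooxygenase, fell like ICAM1, from 31.5 to 13.6 CPM (log2 -1.21, SE 0.20, adjusted p = 1.52e-05).

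The upstream lists held calls in both directions, with shares to be read against the 22.6% of all genes that were higher and the 23.4% that were lower. Of 19 adaptors and ubiquitin enzymes tested 6 were higher and 4 lower, with TRAF2, a signalling adaptor, at 0.53 (SE 0.11, edgeR adjusted p = 0.000172) and MALT1, a protease of the pathway, at -0.94 (SE 0.07, adjusted p = 3.37e-12). Of 10 receptors tested 3 were higher and 2 lower, with CD40 at 0.76 (SE 0.09, adjusted p = 1.13e-07) and TNFRSF11A, the receptor RANK, at -1.08 (SE 0.13, adjusted p = 4.2e-08). Of 6 kinases tested 2 were higher and 1 lower: IKBKB, a catalytic IkB kinase, was at 0.40 (SE 0.06) and CHUK, the kinase of the non-canonical route, at -0.23 (SE 0.08). Of 7 other subunits and IkB proteins tested 3 were higher and 0 lower, among them NFKBIZ at 0.39 (SE 0.08). Of 11 other feedback regulators tested 0 were higher and 3 lower, among them the deubiquitinase OTUD7B at -0.27 (SE 0.08), whereas the members NFKBIA and TNFAIP3 were both higher.

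Under vehicle alone 9 of the 88 genes were higher and 4 lower, against 20.1% of all genes called. LTB (3.22 to 14.7 CPM), CD40 (14.8 to 26.4 CPM) and TRAF3 (34.0 to 48.0 CPM), an inhibitor of the non-canonical route, were higher. MALT1 (48.7 to 25.2 CPM) and TNFRSF11A (9.29 to 5.35 CPM) were lower.

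For decitabine averaged over lines and doxorubicin, 15 of the 88 rose and 0 fell, against 6.80% of all genes called, and 11 of the 15 were among the 35 target genes. SAA1, an acute-phase protein, rose from 2.07 to 5.25 CPM (log2 1.29, SE 0.33, edgeR adjusted p = 0.0173), TLR2 from 4.01 to 5.88 CPM, TRAF3 from 44.3 to 52.7 CPM and CHUK from 11.2 to 14.3 CPM. In resistant tumours 3 of the 88 rose with decitabine, against 3.33% of all genes, among them MMP9, a matrix metalloproteinase, from 0.585 to 5.85 CPM. For doxorubicin averaged over lines, edgeR called 0 of the 88 genes, against 2.37% of all genes, with 26 at an unadjusted p under 0.05 and 3 called by DESeq2. Of the 35 target genes 29 had positive fitted changes, with a median of 0.20 against 0.29 for the 10 members and 0.0083 for all genes. For decitabine in parental tumours edgeR likewise called 0 of the 88, against 1.67% of all genes, with 19 at an unadjusted p under 0.05 and 2 called by DESeq2.

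**Figure D5:**
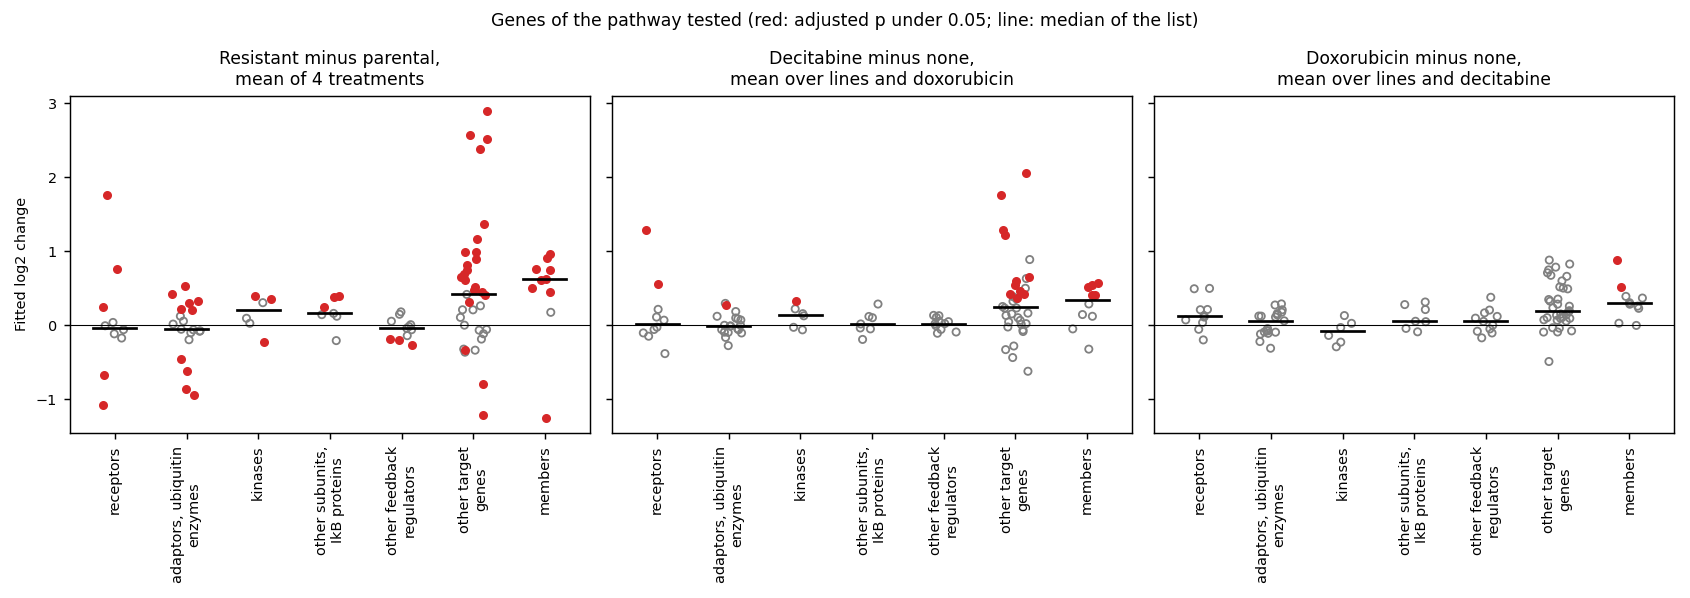
Fitted log2 change (vertical axis) of every tested gene of 6 pathway lists and of the 10 members, for the line averaged over treatments (left), decitabine (middle) and doxorubicin (right), red where the edgeR adjusted p is under 0.05, with the median of each list as a line. The members have medians of 0.62, 0.35 and 0.29, and red points lie on both sides of 0 in the left panel only.

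In the annotation (GENCODE v29, GRCh38), ICAM1 spans chromosome 19, 10270835 to 10286615, and is overlapped on the opposite strand by AC011511.2 and AC011511.5. TNFAIP3 spans chromosome 6, 137867188 to 137883312, and is overlapped on the opposite strand by AL357060.1. SOD2, matched as ENSG00000112096, spans chromosome 6, 159669057 to 159745186, and overlaps a second SOD2 entry, HNRNPH1P1 and RNU4ATAC18P on its strand and WTAP on the other. The second SOD2 entry is not among the genes of the count table. Reads of these overlapping genes could have been split or joined, so the values of ICAM1, TNFAIP3 and SOD2 may be less certain. For overlaps on the opposite strand this depends on the strand setting, which is not given. It was not tested. No overlapping gene was found for the other 7 members.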

How the data were processed

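Tumour RNA was sequenced as 29 libraries of 3′ tags (QuantSeq forward, poly(A) RNA, per the labels' protocols). The authors deposited raw counts, whole numbers per gene with no scaling. The submitters' processing notes name the build GRCh38.p10 and the tools featureCounts, cutadapt, DESeq2 and STAR 2.7.3a. The annotation release, strand setting and treatment of mouse reads are not given in the sources used here. Identifiers were named from a symbol table and, for 507 of them (SOD2 included), from GENCODE v29.

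Groups came from the sample titles. Library totals were 3398261 to 5382295 counts. After filterByExpr (count 10, total 15) and scaling by the trimmed mean of M-values (factors 0.896 to 1.07), 8 group means were fitted in edgeR 4.0.16 under R 4.3.3, with a quasi-likelihood F test of 19 contrasts. Benjamini-Hochberg adjustment covered 13495 genes per contrast, with a threshold of 0.05. The fit was tested on simulated counts. Alternatives were DESeq2 1.42.0, other scalings, no filter, a replicate block, fewer groups and left-out libraries. Correlations used 100000 resamples and a pseudocount of 1, principal components the 2000 most variable genes.

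Both flanks were injected, and no label says which mouse a library came from. The p-values therefore describe the spread among these libraries, and mice may be shared. No replicates were alike within sampling noise (smallest chi-square 3.65 per degree of freedom). Members and lists were chosen with earlier results of these data known. All 10 members are named in every comparison, with the called gene of largest change per direction of each pathway list in 6 comparisons (at 5 CPM or more), called markers, and the 3 genes most like each of NFKB2, NFKBIA and ICAM1. PTPRC, CD3E, MS4A1 and called markers under 5 CPM (FCER1G, TEK, CSF1R, CD8A, FABP4 in some groups) were named outside that rule.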

Additional observations from a re-analysis of the deposited data

Results flagged for a closer look

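In 3 of the 50 sets of 4 libraries (10 members in 5 groups), 1 library lay far from the others relative to the spread of its set, and chance alone is set to give about 1 in 20. NFKB1 in resistant vehicle 3 was at 26.45 CPM, with the other 3 libraries at 33.67 to 34.96 CPM. TRAF1 in resistant vehicle 4 was at 4.746 CPM, with the others at 9.375 to 9.954 CPM, and without that library the changes of TRAF1 with decitabine and with the combination in resistant tumours were not called. SOD2 in parental vehicle 3 was at 11.32 CPM, with the others at 19.85 to 21.33 CPM, and without it the change of SOD2 with the combination in parental tumours was not called.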

How the results depend on the processing

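Of the 48 changes called for single members, 29 were called in every alternative, and none of 1712 values under an alternative changed sign. Of 128 counts of members called under alternatives other than a left-out library, 114 stayed within 1.5 times of the count reported. Without the filter on low counts the number called was 1 for decitabine in parental tumours (0 with it), 4 for decitabine in resistant tumours (2), 5 for the combination in parental (2) and 5 in resistant tumours (3), 2 for the combination against doxorubicin in either line (0), 6 for doxorubicin averaged (2) and 2 for the decitabine difference between the lines (0). Without the 2 libraries that stood apart, 0 were called for decitabine in resistant tumours. With only the groups compared in the fit, 4 were called between the lines under decitabine (7), 0 for decitabine in resistant tumours (2) and 1 for the combination in resistant tumours (3). DESeq2 called 2 for the decitabine difference between the lines, and the replicate block called 1. The cause of these shifts was not tested.

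With 1 library left out, members called ranged from 5 to 5 between the lines under vehicle, 5 to 7 under decitabine, 3 to 5 under doxorubicin, 3 to 5 under the combination and 9 to 10 on average. For drugs against vehicle they ranged from 0 to 3 for decitabine and 0 to 4 for the combination in resistant tumours, and from 1 to 3 for the combination in parental tumours. They ranged from 1 to 4 for the combination against decitabine in parental tumours, 3 to 5 for decitabine averaged, 1 to 4 for doxorubicin averaged and 0 to 2 for the decitabine difference between the lines, and stayed at 0 in the other 7 comparisons. A fit on only the groups compared was not made for the 5 contrasts that use all 8 groups.

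No pairing by replicate number showed in the medians. Deviations of libraries across groups had a median correlation of 0.001992 in 94 same-numbered pairs and of 0.0007502 in differently numbered pairs. Of the same-numbered pairs 31 were above 0.1, and 8 of 29 libraries correlated best with their own number. For these last 2 counts no chance rate was computed. With the replicate block, the counts of members called moved for the lines under decitabine (6 against 7) and doxorubicin (5 against 4), for the combination in resistant tumours (2 against 3), for decitabine averaged (4 against 5) and for the decitabine difference between the lines (1 against 0), and in none of the other 14 comparisons.

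The number of all genes called, from which the background shares come, moved by over 1.5 times for the following drug contrasts. For decitabine in parental tumours it was 225 as reported, 942 without the filter, 492 in DESeq2, 147 with the block, 96 without the 2 libraries and 2 with only the groups compared, and in resistant tumours 450 as reported, 1089 without the filter, 162 without the 2 libraries and 104 with only the groups compared. For doxorubicin in parental tumours it was 31 as reported, 192 without the filter, 154 in DESeq2, 3 with the block, 3 without the 2 libraries and 0 with only the groups compared, and in resistant tumours 0 as reported, 74 without the filter and 4 with only the groups compared. For the combination in parental tumours it was 139 as reported, 884, 322, 85 and 64 (no filter, DESeq2, without the 2 libraries, only the groups compared), and in resistant tumours 152 as reported and 783, 236, 363 and 66 in the same order. Against doxorubicin it was 41 in parental tumours, 305 without the filter, 80 in DESeq2 and 65 without the 2 libraries, and 89 in resistant tumours, 543 without the filter, 193 without the 2 libraries and 49 with only the groups compared. Without the filter it was 48 against 0 for the combination against decitabine in resistant tumours, 774 against 320 for doxorubicin averaged, 1884 against 448 for the decitabine difference and 113 against 0 for the doxorubicin difference between the lines. DESeq2 gave 610, 1238 and 66 for these last 3, and the decitabine difference came to 24 without the 2 libraries. Between the lines, the count under decitabine was 2160 with only the groups compared, against 3616. Depth limits ICAM1 most in resistant vehicle tumours, where its level rests on 91 counts over 4 libraries.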
